A study of Mus musculus with 2 samples.

Results

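The genes described here encode proteins of synaptic vesicles and of the machinery that fuses vesicles with the plasma membrane and takes them up again. They were chosen by name from the gene names of the array: SNARE proteins (Vamp and Stx genes, and Snap genes other than Snap91) and the proteins that bind them, synaptotagmins and synaptotagmin-like genes, synapsins, complexins, Rab3 and Rims genes, and single genes such as Amph, Cadps, Dnm1 and Snap91. The names gave 163 probes of 80 genes, out of 28781 genes on the array. Of these 80 genes, 64 gave a signal well above background (60 on both arrays and 4 on 1 of them), and the other 16 did not on either. The name rule is wider than the synapse, since it also takes syntaxins and Vamp proteins that serve the Golgi apparatus, endosomes and lysosomes of all cells.

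Total RNA from 2 mouse neural progenitor lines was hybridised to Agilent 1-colour arrays, 1 for each line. Both were made from N31, a progenitor line of strain 129/Ola obtained from induced pluripotent stem cells, and both carried the reprogramming factors c-Myc, Klf4, Sox2 and Oct3/4 under the control of doxycycline. In addition, Pax6, a transcription factor of the developing brain and eye, was overexpressed in one line and EGFP, a fluorescent marker protein, in the other, each from a construct with the ubiquitous CAG promoter inserted with the Tol2 transposon. Both received doxycycline for 24 h before RNA was taken, at which time only the EGFP cells had visibly changed shape. The sources used here do not say whether each line was 1 clone, and cells without doxycycline were not analysed here. With 1 array per line there is no replicate and no test, and precision is limited by the number of arrays, so "higher" and "lower" describe the Pax6 array against the EGFP array.

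A synaptic vesicle is filled with transmitter, docks at the active zone, is primed by proteins that assemble the SNARE complex, and fuses when calcium binds a synaptotagmin. SNARE proteins on the vesicle (Vamp) and on the target membrane (syntaxin and Snap25) zip together and draw the membranes close, while complexins and Munc18 proteins (Stxbp genes) control that step. After fusion, clathrin adaptors, amphiphysin, endophilins, dynamin and synaptojanin retrieve the membrane. Many of these proteins have neuronal forms and broadly expressed relatives, and cells outside the nervous system use the latter for secretion.

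Values are processed signals, the scanner software's background-subtracted brightness of a spot. A difference is the log2 signal on the Pax6 array minus that on the EGFP array, after each array was scaled to its 75th percentile (854 for EGFP and 991 for Pax6). The ± after a difference is the software's measurement error, with a median of 0.20 over the measured vesicle genes, and it holds no variation between cultures. A gene is represented by its brightest probe. Where that probe was well above background on 1 array only, the difference is a lower bound, written "at least". It sets the bright array against the dim probe's own signal or, where that is lower, against the dimmest signal that still counted as above background (10.3 for EGFP and 9.30 for Pax6). No probe of these genes was spotted more than once.

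The vesicle genes at least 2-fold different were few but spread over most steps of the cycle. Amph, Cadps, Snap91, Rimbp2, Syn1 and Syt7 were higher on the Pax6 array, and Sh3gl2, Snap25, Cplx1 and Unc13a were lower. These 10 genes are 15.6% of the 64 measured, against 4.77% of all 19251 genes measured (919 genes). By direction, 6 of the 64 vesicle genes were higher, against 2.35% of all genes, and 4 were lower, against 2.43%. Of the 60 vesicle genes measured on both arrays, 52 lay within 2-fold, 47 of them within 1.5-fold. The bounds of Sv2b and Syt4 were under 2-fold, which leaves the size of their differences unknown. The median difference of the 64 genes was -0.05, beside -0.01 over all genes, with 28 genes above 0 and 36 below, so the set as a whole did not lie on one side. Under scaling by each array's median, the set's median was 0.03. In RNA of a whole culture, fewer cells that make a transcript and less transcript in each cell cannot be told apart.

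**Figure D1:**
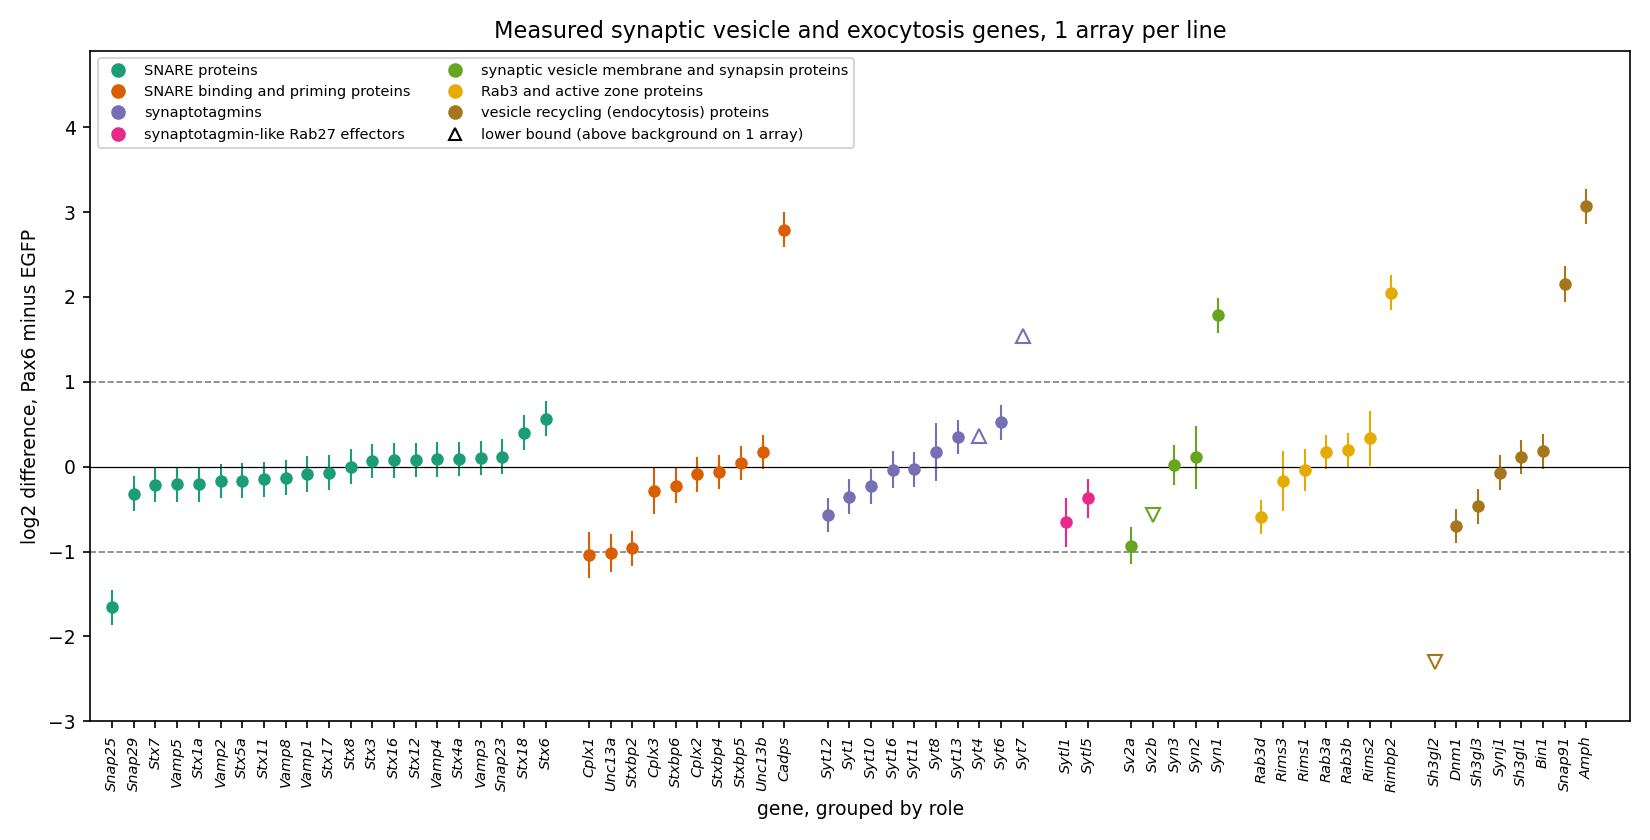
Log2 difference (Pax6 minus EGFP) of the measured vesicle genes, grouped by role (1 gene within 2-fold is not drawn), with 1 point per gene, bars for the software's measurement error, open triangles for lower bounds and dashed lines at 2-fold. Most genes lie between the dashed lines, 6 lie above the upper line and 4 below the lower one, and Cplx1 and Unc13a reach the lower line only narrowly (-1.04 and -1.01).

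The count was read against brightness. Among all genes, 1.46% of the 9626 brighter ones and 8.08% of the 9625 dimmer ones were at least 2-fold different, split at the median brightness. Among the vesicle genes the counts were 2 of 29 (6.90%) and 8 of 35 (22.9%). The share was thus higher than in all genes on both sides of the median. The brighter side rests on Syn1 and Cadps alone, and the second measured probe of Syn1 did not share its difference (-0.35). The genes were chosen with earlier results of these data known, so these shares describe them and are no test.

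Sequences are shown upstream of Snap91 and Syn1, whose brightest probes were over 3-fold higher on the Pax6 array (for Syn1 the second measured probe was not, at -0.35). Amph, Cadps and Rimbp2 were also over 3-fold higher but are not shown, since their upstream stretches had under 200 bases outside the gene's own span. For Snap25, over 3-fold lower, no upstream sequence was available. They are from RefSeq (build GRCm38.p6), on the strand of the gene, within 250 bases before a start site, and trimmed to the bases outside the gene's own span. The stretch of Snap91 lies at chr9:86880735-86880958 on the minus strand and that of Syn1 at chrX:20920919-20921168 on the minus strand. Capitals mark matches to the motifs given after the sequences.
Snap91: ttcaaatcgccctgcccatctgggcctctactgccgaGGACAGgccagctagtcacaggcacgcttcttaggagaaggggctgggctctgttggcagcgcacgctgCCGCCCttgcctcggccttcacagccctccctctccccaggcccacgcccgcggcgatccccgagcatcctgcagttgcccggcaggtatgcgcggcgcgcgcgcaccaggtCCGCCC
Syn1: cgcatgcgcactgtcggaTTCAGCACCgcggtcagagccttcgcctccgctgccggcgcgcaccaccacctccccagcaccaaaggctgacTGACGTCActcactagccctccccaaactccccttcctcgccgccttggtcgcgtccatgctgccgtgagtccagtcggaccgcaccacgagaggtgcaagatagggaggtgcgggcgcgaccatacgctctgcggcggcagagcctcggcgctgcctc

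The motifs were searched on both strands in the 250 bases before each start. TTCAGCACC, the left part of the RE1 element that the repressor REST binds in many neuronal genes, was in 0.348% of 27025 genes with such a window and, among the 64 vesicle genes with one (not the same 64 as those measured), in Syn1 only, at bases 232 to 224 before its start. TGACGTCA, the cyclic AMP response element, was in 1.77% of genes and in 2 vesicle genes, Syn1 (bases 159 to 152) and Sh3gl2. GGACAG, the right part of RE1, was in 21.0% of genes and 14 vesicle genes (21.9%), so its match in Snap91 at bases 213 to 208 is of a common kind. The GC box GGGCGG was in 35.4% of genes and in 41 vesicle genes (64.1%), and Snap91 holds it on the opposite strand at bases 144 to 139 and 32 to 27. CACCTG, an E-box, was in 20.3% of the vesicle genes against 19.4% of all, and TATAAA in 6.25% against 14.3%. The searched motifs do not overlap each other in these 2 stretches. A match is a description of the letters only. The stretches are rich in G and C, at 69.6% for Snap91 and 68.0% for Syn1, beside a median of 52.4% over all windows.

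Of the 21 SNARE genes, all measured, Snap25 alone was at least 2-fold different, a share of 4.76% that is near the 4.77% of all genes. Snap25 is the neuronal target-membrane SNARE that, with syntaxin 1, receives the vesicle. Its signal was 242 for EGFP cells and 88.9 for Pax6 cells, which is a difference of -1.66 ± 0.21 or 3.15-fold lower (probe at mm7 chr2:136522959-136523022). A second probe of Snap25 gave 241 and 81.9, or -1.77, and the remaining probe was below that limit on both arrays. Both measured probes were thus brighter on the EGFP array by over 3-fold.

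By their brightest probes, the other 20 SNARE genes lay within 1.5-fold, from -0.32 for Snap29 to 0.57 for Stx6. Stx3 is among them by a probe on the strand opposite to its other 4, which gave -0.84 to -0.47. The partners of Snap25 at the synapse were among them. Stx1a, the plasma-membrane syntaxin of neurons, had signals of 128 on both arrays and a scaled difference of -0.21 ± 0.21. Vamp2, the main synaptic vesicle SNARE, had signals of 953 and 984 and a difference of -0.17 ± 0.20, and Vamp1, its closest relative, had a difference of -0.09 ± 0.21. Snap23, the broadly expressed relative of Snap25, had signals of 1771 and 2230 and a difference of 0.12 ± 0.20, with 3 probes between 0.08 and 0.12. Snap25 was therefore lower while neither its neuronal partners nor its broad relative differed by more than 1.5-fold.

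Among the proteins that bind and prime SNAREs, 1 gene was higher and 2 lower, of 11 measured. This is 27.3%, against 4.77% of all genes measured. Cadps, which encodes CAPS1, a priming factor best known from dense-core vesicles, had a signal of 245 for EGFP cells and 1969 for Pax6 cells. This is a difference of 2.79 ± 0.20, or 6.93-fold higher (probe at mm7 chr14:10188774-10188833). A second Cadps probe 38.7 kb away gave 199 and 1034, a difference of 2.16, so both probes were over 4-fold brighter on the Pax6 array. Its paralog Cadps2 was not detected on either array.

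Cplx1 and Unc13a were lower, both near the 2-fold limit. Cplx1, a complexin that clamps and activates assembled SNAREs, had signals of 44.5 and 25.1, a difference of -1.04 ± 0.27 (2.05-fold lower, probe at mm7 chr5:107699806-107699865). Cplx2, a complexin of the same subfamily, had signals of 1674 and 1824 and a difference of -0.09 ± 0.20, with 4 probes from -0.24 to -0.05, and Cplx3 had -0.29 ± 0.28, while Cplx4, a complexin of the retina, was not detected. Unc13a encodes Munc13-1, which opens syntaxin for assembly. Its signals were 72.8 and 41.8, a difference of -1.01 ± 0.22 (2.02-fold lower, probe at mm7 chr8:70127593-70127652), and its second probe was not well above background. Under scaling by the median, quantile normalization and cyclic loess, Cplx1 (-0.98 to -0.96) and Unc13a (-0.95 to -0.93) fell within 2-fold. There 6 vesicle genes were higher and 2 lower, 75% higher against 60% with the percentile. The share higher also rose over all genes at least 2-fold different, to 59.3%, 52.4% and 56.7%, from 49.2% with the percentile.

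Unc13b, the Munc13-2 gene, depended on the probe. Its brightest probe gave 200 and 261, a difference of 0.17 ± 0.21, while the other 3 gave -0.94, -1.04 and -1.10. The latter were close to the Unc13a value. Stxbp2, the Munc18 form of epithelial and blood cells, had signals of 628 and 374, a difference of -0.96 ± 0.20, or 1.95-fold lower. Stxbp4, Stxbp5 and Stxbp6 lay between -0.23 and 0.04.

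The synaptotagmins, not all of which are calcium sensors, were mostly dim or equal. Of 17 synaptotagmin genes 10 were measured, and Syt7 alone was at least 2-fold different. This is 1 of 10, against 4.77% of all genes measured, and too few genes were measured to read the count as many or few. Syt7, a slow, high-affinity calcium sensor, had a signal of 34.8 on the Pax6 array and one not well above background (9.71) in the EGFP line, so it was at least 2.90-fold higher. Its second probe was not detected on either array. Syt1, the fast sensor of transmitter release, had signals of 1983 and 1801 and a difference of -0.35 ± 0.20. Its 5 probes ran from -0.51 to 0.70, with the highest value on the dimmest probe (12.8 and 24.2). All 8 synaptotagmins measured on both arrays, Syt1 included, lay within 1.5-fold, from -0.57 for Syt12 to 0.52 for Syt6, and Syt4 had a bound only, at least 1.28-fold higher. Syt11, a synaptotagmin that does not bind calcium, had 5 probes from -0.68 to 0.11. Syt2, Syt3, Syt5, Syt9, Syt14, Syt15 and Syt17 were not detected on either array, meaning not well above background. The synaptotagmin-like genes, effectors of Rab27 in granule secretion, were represented by Sytl1 (-0.66 ± 0.29, 1.58-fold lower, signals of 24.9 and 18.4) and Sytl5 (-0.37 ± 0.23), while Sytl2, Sytl3 and Sytl4 were not detected.

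Among the proteins of the vesicle itself, Syn1 stood apart by its brightest probe. Syn1 encodes synapsin I, which tethers vesicles to each other and to actin. That probe gave 441 for EGFP cells and 1761 for Pax6 cells, a difference of 1.78 ± 0.20 or 3.44-fold higher (mm7 chrX:19353787-19353846). The other measured Syn1 probe, 59.9 kb away toward the 3′ end (mm7 chrX:19293917-19293976), gave 85.8 and 78.2, a difference of -0.35 ± 0.21. The 2 probes are both placed on the minus strand, and their differences are 4.38-fold apart. A further 2 probes were not well above background. The higher Syn1 value thus rests on 1 probe and was not shared by the second.

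The relatives of Syn1 were dim and near equal, with Syn2 at 0.11 ± 0.37 (14.4 and 18.0) and Syn3 at 0.02 ± 0.23 (38.0 and 44.7). Sv2a, a glycoprotein of synaptic vesicles and the binding site of the drug levetiracetam, had signals of 82.0 and 49.95, a difference of -0.93 ± 0.21 or 1.90-fold lower, and its second probe gave -0.76. Its relative Sv2b was detected on the EGFP array only (11.8 against 5.56), at least 1.48-fold lower. Syp, which encodes synaptophysin, the vesicle protein most used as a synaptic marker, was not well above background on either array, nor was Sv2c. Sv2a and Sv2b were thus dim on both arrays, and Syp and Sv2c undetected.

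**Figure D2:**
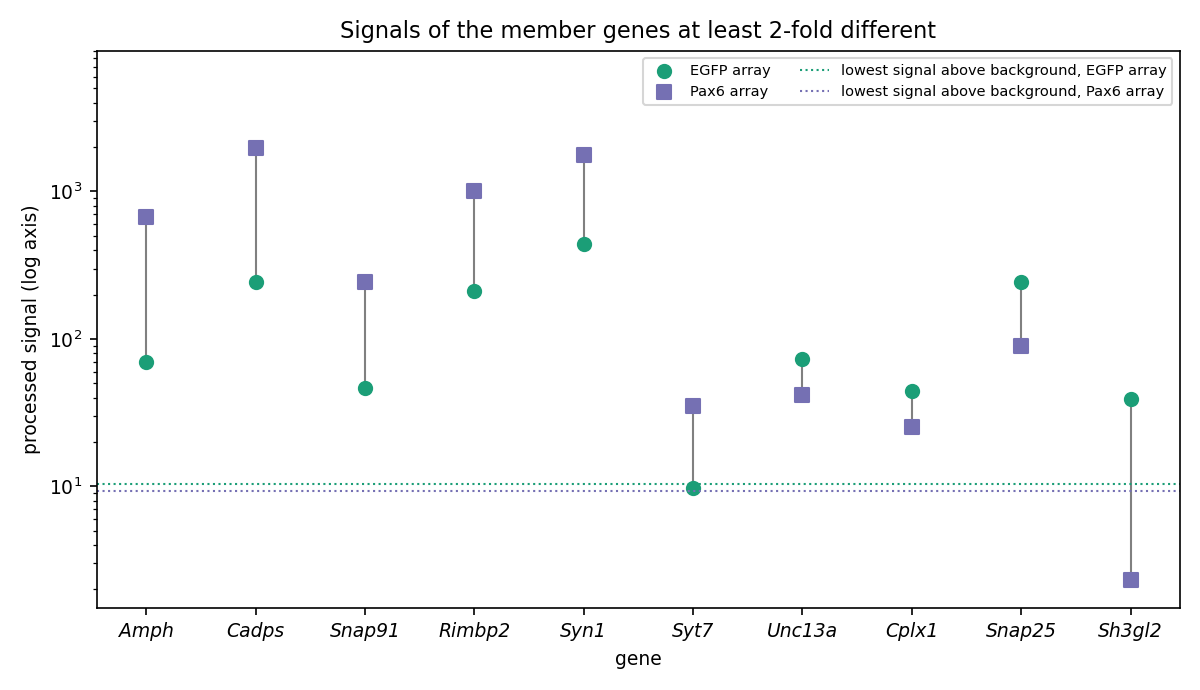
Processed signal (log axis) of the 10 vesicle genes at least 2-fold different, on the EGFP array (circles) and the Pax6 array (squares), with dotted lines at the dimmest signal counted as above background on each. Cadps, Rimbp2 and Syn1 reach 1009.6 to 1969 on the Pax6 array, and Amph reaches 674. The 4 lower genes have signals of 242 or less on both arrays, as do Snap91 and Syt7 among the higher ones.

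At the active zone, Rimbp2 was higher and the Rims genes near equal. Rimbp2 encodes a protein that links Rims to calcium channels, and its single probe gave 210.5 for EGFP cells and 1009.6 for Pax6 cells. The difference was 2.05 ± 0.20, or 4.13-fold higher (mm7 chr5:127993749-127993808). Rims1, the scaffold that Rimbp2 binds, had signals of 26.6 and 30.02 and a difference of -0.04 ± 0.25. Rims2 (0.34 ± 0.32) and Rims3 (-0.17 ± 0.35) were also dim, and Rims4 was not well above background. Rab3a, the vesicle GTPase that binds Rims, was bright at 2856 and 3737, with a difference of 0.17 ± 0.20. Rab3b gave 0.19 ± 0.20 and Rab3d -0.59 ± 0.20 (730.04 and 562, 1.51-fold lower), with a second Rab3d probe at 0.03. Rab3c was not detected.

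The recycling genes held 2 genes that were higher, Amph and Snap91, and 1 that was lower, Sh3gl2, of 8 measured. This is 37.5%, against 4.77% of all genes measured. Amph encodes amphiphysin, which senses membrane curvature and brings dynamin to the neck of a forming vesicle. Its signal was 69.4 for EGFP cells and 674 for Pax6 cells, a difference of 3.07 ± 0.21 or 8.37-fold higher (mm7 chr13:18518066-18518125). The second Amph probe was detected with Pax6 only (2.53 and 13.2), which puts it at least 1.10-fold higher. Bin1, the broadly expressed amphiphysin, had signals of 19733 and 25949 and a difference of 0.18 ± 0.20, with 3 probes from -0.24 to 0.18.

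Snap91 encodes AP180, the neuronal clathrin adaptor that sets the size of recycled vesicles. It had signals of 46.7 and 241, a difference of 2.16 ± 0.21 or 4.45-fold higher (mm7 chr9:86869100-86869159), and a second probe was not well above background. Picalm, its broadly expressed relative, gave -0.10 ± 0.20. Both Amph and Snap91 were therefore higher while their broad relatives differed by less than 1.5-fold.

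Sh3gl2, which encodes endophilin A1, went the other way. Its brightest probe gave 39.4 on the EGFP array and was not well above background on the Pax6 array (2.301), at least 4.91-fold lower (mm7 chr4:84803001-84803060). The other 2 Sh3gl2 probes were not detected on either array, so the value rests on 1 probe. The other endophilins were Sh3gl1 (0.11 ± 0.20), the ubiquitous form, and Sh3gl3 (-0.47 ± 0.20). Dnm1, the neuronal dynamin that pinches off vesicles, had signals of 793 and 567 and a difference of -0.70 ± 0.20, or 1.62-fold lower, while the ubiquitous Dnm2 gave -0.08. Synj1, the lipid phosphatase that uncoats vesicles, gave -0.07 ± 0.20 and its 3 probes -0.47 to -0.03.

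The genes were also grouped by where their proteins are used. A list of 22 genes of the neuronal release machinery, chosen with earlier results of these data known, had 19 measured genes. Of these, 3 were higher (Cadps, Snap91 and Syn1) and 4 lower (Snap25, Cplx1, Unc13a and Sh3gl2), 36.8% in all beside 4.77% of all genes, with a median of -0.17. A list of 18 broadly expressed SNARE genes and SNARE-binding genes had 18 measured, none at least 2-fold different, from -0.96 (Stxbp2) to 0.57 (Stx6), with a median of 0.06. A count of 0 among 18 genes is near the share of 4.77%. The remaining 27 measured genes held Amph, Rimbp2 and Syt7. The broadly expressed genes are also brighter, with 14 of 18 above the median brightness of all genes against 8 of 19 for the neuronal list. On the brighter side 2 of 8 neuronal genes and 0 of 14 broad genes were at least 2-fold different, and on the dimmer side 5 of 11 and 0 of 4. Over all genes the shares were 1.46% on the brighter side and 8.08% on the dimmer side. Since both lists were drawn up with results in view, these counts describe the genes and do not test a difference between the lists. The part of brightness in them was not tested.

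Probes of the same gene give the one check of these values inside the arrays. Of 26 vesicle genes with at least 2 probes above background on both arrays, 23 had probes within 2-fold of each other. The median gap between the 2 brightest probes was 0.14, beside 0.11 over 5800 genes of the array. Syn1, Unc13b and Syt1 spanned more than 2-fold. Among the vesicle genes at least 2-fold different, only Cadps, Snap25 and Syn1 had such probes, and those of Syn1 were 4.38-fold apart. The others of these could not be checked this way. In 12 genes the probes had both signs, which for Bin1, Stx17, Stx8, Vamp2, Vamp3 and Vamp4 means values between -0.24 and 0.18, and the other 6 were Syn1, Unc13b, Syt1, Syt11, Rab3d and Stx3. Stx3, a syntaxin of apical membranes and ribbon synapses, had its brightest probe (0.07 ± 0.20) on the plus strand of the array design and the other 4 on the minus strand, where they ran from -0.84 to -0.47. Its value in the set is therefore that of the probe placed opposite to the rest.

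**Figure D3:**
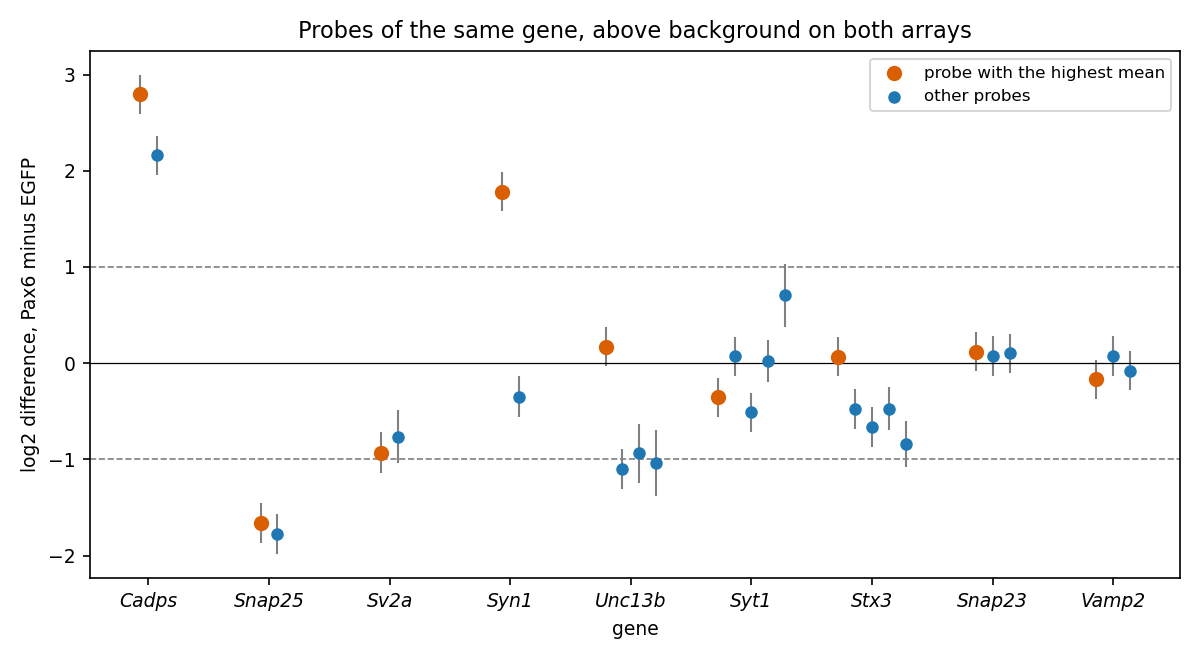
Log2 difference (Pax6 minus EGFP) of each probe above background on both arrays for 9 vesicle genes, with the brightest probe of each gene first and bars for the measurement error. The probes of Cadps, Snap25, Sv2a, Snap23 and Vamp2 lie together, whereas the 2 Syn1 probes are 2.13 apart and 3 of 4 Unc13b probes lie near -1.

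The rest of the release and recycling pathway held few differences of this size. Of 68 further genes with a probe (NSF and SNAP adaptors, active zone scaffolds, exocyst, clathrin and AP2 subunits, secretogranins and others), 64 were measured, none were at least 2-fold higher and 2 were lower. This is 3.13%, near the 4.77% of all genes, and the median was -0.04. Ppfia4, a liprin of the active zone, had signals of 1248 and 460 and a difference of -1.66 ± 0.20 (3.15-fold lower). Unc13d, the Munc13-4 of granule secretion in blood cells, had 127 and 70.2 and a difference of -1.07 ± 0.21 (2.10-fold lower). The active zone scaffolds Bsn and Pclo gave at least 1.41-fold higher and -0.80.

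Pax6 transcript was only slightly brighter in the line that overexpressed it. Its probe with the highest mean had signals of 557 and 822 (0.35 ± 0.20), a second gave 0.26 over 9 spots, and another was detected on the Pax6 array only. The position of these probes relative to the construct is not known here, so they check the label weakly. The label of neural progenitor cells was set against fixed marker lists. Of 10 progenitor markers 9 were measured (Hes5 was not), with Sox2 at 1.74, Nes at -1.66 and a summed level of 123.5 and 131 times the 75th percentile on the EGFP and Pax6 arrays. Without Vim, which makes up most of that sum, the levels were 6.82 and 3.55. Sox2 is also among the reprogramming factors under doxycycline in both lines, so its signal may not be that of a progenitor marker alone. The part of the introduced Sox2 in its signal was not tested. Of 12 neuron markers 9 were measured, 2 of them as bounds, and none was called at least 2-fold different, against 4.77% of all genes. The 7 measured on both arrays lay from -0.78 to 0.47. The summed levels of the 9 were 12.2 and 12.7, or 5.98 and 4.59 without Nefl, while Dcx, Ina and Nefm were not detected on either.

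Markers of other cell types moved with the comparison in part. All 8 measured of 9 epithelial markers were lower on the Pax6 array, by 2.59-fold to 10.6-fold, against 2.43% of all genes at least 2-fold lower. They were Cdh1, Epcam, Krt8, Krt18, Krt19, Cldn3, Cldn6 and Esrp2. Their summed levels were 70.7 and 25.7 (20.6 and 6.91 without Krt18), and Esrp1 was not well above background. Of 9 neuroendocrine markers 7 were measured and none was at least 2-fold different, against 4.77% of all genes. Their sums were 6.69 and 4.57, or 0.208 and 0.195 without Cpe. Astrocyte markers (7 of 7 measured) had 1 higher, Aqp4 (at least 3.86-fold), and 1 lower, Slc1a3 (12.9-fold, signals of 306 and 27.5). This is 28.6%, against 4.77% of all genes, and the sums were 7.91 on both arrays. Oligodendrocyte markers (5 of 8) had 1 higher, Pdgfra (1.92), and 1 lower, Mbp (-1.07), or 40%, with sums of 6.34 and 4.03. Blood (2 of 6 measured) and endothelial markers (2 of 5) had none called at least 2-fold different. The part of these cell types in the vesicle gene differences was not tested.

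**Figure D4:**
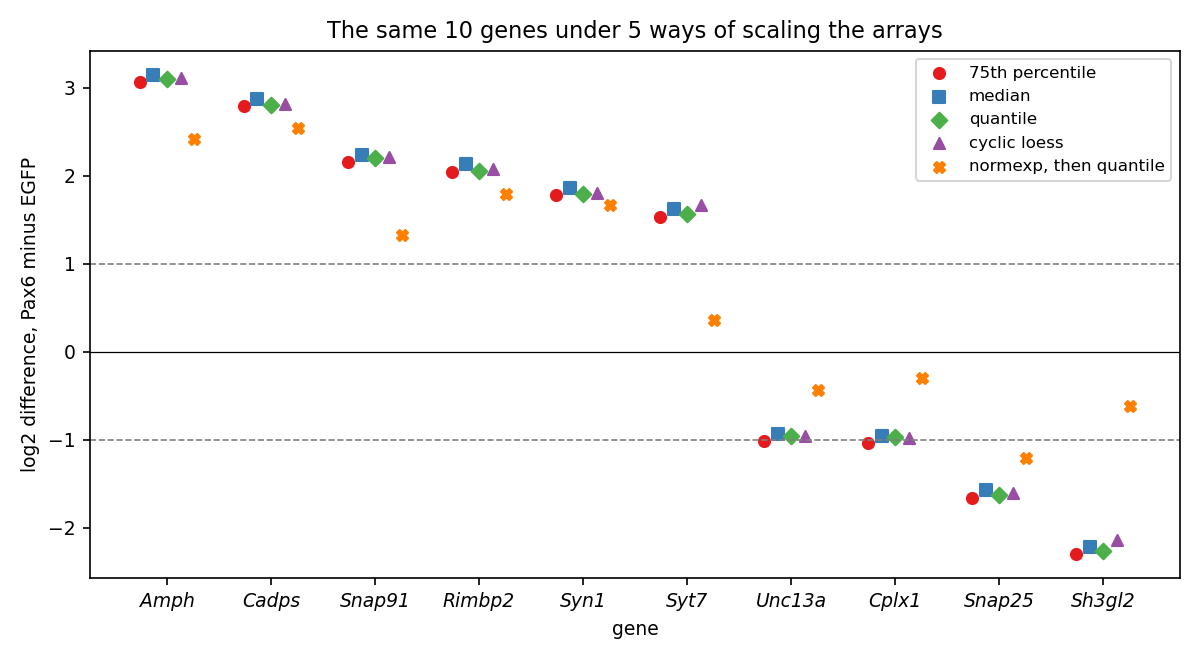
Log2 difference (Pax6 minus EGFP) of the 10 vesicle genes at least 2-fold different, under 5 ways of scaling or background correction, with dashed lines at 2-fold. No gene changes sign, Unc13a and Cplx1 cross the lower line, and normexp background correction brings Syt7 (0.36), Unc13a (-0.43), Cplx1 (-0.30) and Sh3gl2 (-0.62) within 2-fold.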

How the data were processed

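Total RNA of 2 lines was labelled with Cy3 and hybridised to 1 array each, per the labels' protocols. Spots were read by the authors with version 10.7.3.1 of Agilent Feature Extraction (per the file headers). Each deposited intensity is a processed signal, which the software corrected for background and for spatial trends but did not normalize across arrays, and the deposited series table holds the same values. The deposited flags (unit other) mark spots well above background (by 13 of its SDs), saturated spots and outliers, per the file headers. No spot was saturated. The flag for well above background was set for 64.7% (EGFP) and 67.2% (Pax6) of 43379 non-control spots.

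Outlier spots (51 and 52) were left out and replicate spots averaged, which kept 41168 probes. Log2 signals were scaled to each array's 75th percentile, and each gene was represented by its brightest probe among those flagged on at least 1 array. Of 19251 genes measured, 1419 have a lower bound. Genes were counted by a fixed size, at least 2-fold, with no test. Named were all vesicle genes at least 1.5-fold different, the neuronal list, close relatives of the 2-fold genes, genes whose probes disagree, and 2-fold genes of the other lists; 1 gene of the neuronal list is counted but not reported here. The members and lists were chosen with earlier results of these data known. Accessions matched a current symbol for 118 of 163 probes. Probe coordinates are those of the array design (mm7); exons are not stated, since no mm7 annotation was used. Motifs were chosen as textbook elements.

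Alternatives were other scalings, normexp (offset 50), means or medians of probes, filters on dim probes, a 3-fold rule and a rule of 2 times the error. Work was done in R 4.3.3 with limma 3.58.1 and Python 3.11.15, and the steps were tested on simulated data.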

Additional observations from a re-analysis of the deposited data

How the results depend on the processing

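None of the 10 vesicle genes changed sign under any scaling, and each alternative apart from the 3 described next left the count of vesicle genes at least 2-fold different between 8 and 11 of those measured. Normexp background correction left 6 vesicle genes (Amph, Cadps, Rimbp2, Snap91, Syn1 and Snap25) and 285 of all genes, 61.8% of the latter higher against 49.2% with the main scaling. A 3-fold rule gave 7 vesicle genes and 268 genes in all. Without a filter on dim probes 2539 of 28781 genes and 11 vesicle genes were at least 2-fold different, the added one being Sv2b. With the mean or median over a gene's probes above background on at least 1 array, Syn1 was 0.72 and no longer called, and Amph was 1.60. Requiring both arrays above background removed Syt7 and Sh3gl2, and asking for more than 2 times the measurement error removed Sh3gl2. The cause of these shifts was not tested. The median of all genes lay between -0.06 and 0.07. Of the 10 genes, 8 lie below the median brightness, where low signal limits precision. No paired analysis was possible because each group has 1 array.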
